A study of Mus musculus with 4 samples.

Results

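The 10 genes described here belong to the integrated stress response: Atf4, Atf5, Ddit3, Ddit4, Trib3, Chac1, Asns, Psat1, Phgdh and Sesn2. They were chosen by name, and all 10 were among the 17044 genes with a mean normalized count above 0, of 24421 genes listed. The RNA came from hair follicle stem cells (HF-SCs) of adult mouse back skin, isolated by flow cytometry for a nuclear GFP under the Krt14 promoter (Krt14-H2b-GFP), high integrin α6 and CD34, and absence of Sca1. There were 4 bulk RNA-seq libraries at postnatal day 44, of which 2 were controls and 2 came from mice with miR-205 induced. Induced mice carry miR-205 behind a tetracycline-responsive promoter (pTRE2-miR-205) and the Krt14-rtTA activator, which limits induction to keratin 14-expressing epithelium, and ate doxycycline chow from day 42, for 2 days. All mice carry Krt14-H2b-GFP and are labelled C57BL/6, whereas the transgene was made by injection into FVB mice. The controls were littermates, and whether each library was 1 animal is not stated. Their treatment label is "untreated", but the extraction protocol has both groups on doxycycline.

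In the integrated stress response, kinases that sense amino acid shortage, misfolded protein, viral RNA or mitochondrial and heme stress phosphorylate the translation factor eIF2α. Most translation then slows, while the mRNA of the transcription factor ATF4 is translated more. ATF4 in turn switches on genes for amino acid synthesis and uptake, for redox balance and, under lasting stress, for cell death. Doxycycline, used here as inducer, also inhibits protein synthesis in mitochondria, a known trigger of this response. Because much of ATF4 control is at translation, mRNA levels describe only part of the response.

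Of the deposited columns, only the mean normalized count was used, which the authors averaged over control and induced libraries together. The values below therefore describe the level of each gene in these sorted cells and its spread over the 4 libraries. No value is for the control or the induced group alone. Before RNA extraction, the skin was digested with collagenase and trypsin, and the cells were stained and sorted. The part of this handling in the levels was not tested. No control-versus-induced comparison was made. The mean is printed to 15 digits, and a mean of whole read numbers divided by 4 fixed size factors can be taken apart again while the reads are few. Between means of 20 and 1000, 9268 of 9318 genes (99.5%) had exactly 1 set of 4 read numbers, 50 had none within 4-fold of their mean, and none had several. The libraries are numbered here by their depth, which relative to each other was 1.24, 1.18, 0.966 and 0.716. Nothing in the column used tells which library is which sample, so they were put in no group. For 8 of the 10 genes the reads of each library were obtained in this way. Sesn2 had 2 possible sets of reads, and the mean of Atf4 was too high to be taken apart. In such bulk samples, fewer cells of a type and less RNA per cell cannot be told apart.

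Binding of ATF4 to its target genes takes place at the C/EBP-ATF response element, a composite site with the letters TGATGNAA on either strand. Within the window from 250 bases before to 50 bases after annotated starts (RefSeq, GRCm38.p6), 3 of the 10 genes hold these letters. They are shown because they are the only sequence feature of those searched that any of the genes shared. Capitals mark the element, read in the direction of the gene.
Asns (6:7693214-7693243, minus strand): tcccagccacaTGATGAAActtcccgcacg
Chac1 (2:119351038-119351067, plus strand): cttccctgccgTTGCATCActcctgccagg
Trib3 (2:152344028-152344057, minus strand): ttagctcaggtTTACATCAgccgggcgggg
The element lies at bases -23 to -16 from the start in Asns, at -193 to -186 in Chac1, and at 15 to 22 after the start in Trib3, where 1 is the start base itself. In Chac1 and Trib3 it is on the opposite strand. The same letters occurred in 2.87% of the 12514 genes with a mean above 0 that have a promoter in the table. They occurred in 4.51% of all 27025 genes with a promoter, and in 3.97% of all 32851 promoters. The 10 genes were chosen by name as genes of the response that ATF4 drives, so their count is no test of enrichment. The cAMP response element TGACGTCA, which members of the ATF family bind, was in none of the 10 genes and in 3.24% of those 12514. A match describes these letters in this window, and sites farther from the start would not be seen.

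The induced microRNA itself is miR-205, whose 5p strand is mmu-miR-205-5p: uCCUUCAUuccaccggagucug
Capitals mark the seed, bases 2 to 8. The 7-base word that pairs with it, ATGAAGG, was in the longest annotated 3′UTR of none of the 10 genes, and in 11.8% of 14417 genes with a mean above 0 and a 3′UTR. Some of these stretches were short, with 80 bases in Atf4, 133 in Phgdh, 146 in Asns and 197 in Ddit3. The share of 11.8% is not matched for length, and a count of 0 in 10 genes is not far from it. The count says only that these letters are not in those annotated stretches.

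Atf4, the central transcription factor of the response, had by far the highest level of the 10. Its mean normalized count was 11814, above 99.3% of the 17044 genes. The percentile on this scale is not corrected for gene length, so the order of the genes is given per length, as the mean normalized count per kilobase (kb) of annotated exons. Per kb Atf4 stood at 6852, which is 19.3 times the next gene, Phgdh, at 356. This factor depends on the length used, and was 14.7 with the longest transcript of each gene and 4.35 with the shortest coding transcript. The gene spans 80255184 to 80257545 on chromosome 15 (GRCm38.p6).

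The 10 genes ranged over 451-fold in level per kb, from Atf4 down to Trib3. After Atf4 and Phgdh came Sesn2 at 310, Ddit3 at 260, Ddit4 at 209 and Atf5 at 129. Psat1 had 79.1 and Asns 72.1, and at the low end stood Chac1 at 16.2 and Trib3 at 15.2. The median of the 10 was 169, against 39.4 over the 16344 genes that have a length, and 8 of the 10 lay above that median. Chac1 and Trib3, both widely used as readouts of ATF4 activity, were the 2 below it, at percentiles 37.4 and 36.6 of genes per kb. This background holds genes at any mean above 0. With no division by length, the median percentile of the 10 was 68.0, and it was 47.2 among genes with a mean of at least 50. The plot of levels per kb shows the order of the 10 beside the wider lists.

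**Figure D1:**
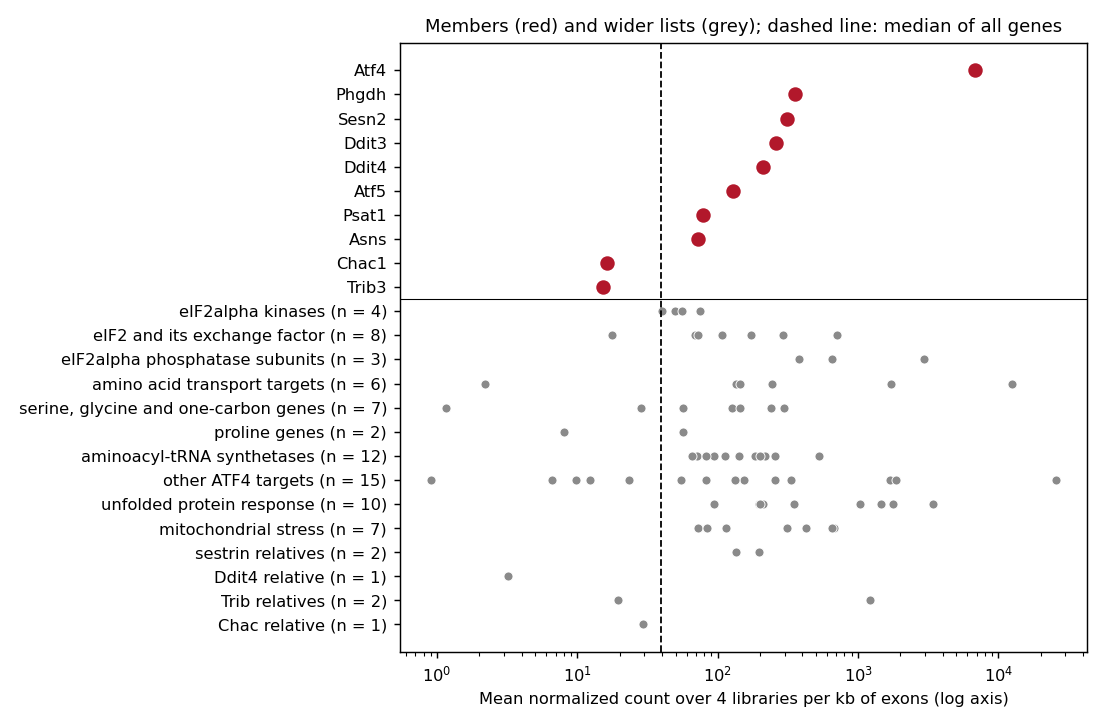
Mean normalized count over 4 libraries per kb of annotated exons, on a log axis, for the 10 genes (red) and for each gene of 14 wider lists (grey), with the median of all genes as a dashed line. Atf4 lies at 6852 and Trib3 and Chac1 lie left of the median of 39.4.

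Among neighbours in this order, values per kb in each of the 4 libraries were set side by side for the 8 genes with recovered reads. Ddit4 lay above Atf5, Atf5 above Psat1, and Asns above Chac1 in 4 of 4 libraries, with ranges that did not overlap. Phgdh and Ddit3 overlapped, as did Ddit3 and Ddit4, and the upper gene was higher in 3 of 4 libraries in each case. Psat1 and Asns could not be ordered beyond their spread, since Psat1 was higher in 2 of 4 libraries. The same held for Chac1 and Trib3. These comparisons hold for exon-union lengths, and the spread over libraries does not cover the choice of length. With the shortest coding transcript, Psat1 stood at 572 per kb, above Ddit4 at 209 and Atf5 at 148. With no division by length, the mean of Psat1 was 336, against 257 for Atf5 and 197 for Asns.

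Of the transcription factors downstream of eIF2α, Ddit3 encodes CHOP, a factor linked to cell death under lasting stress (chromosome 10, 127290793 to 127296291). It had 549, 378, 408 and 450 normalized counts in libraries 1 to 4, from 679, 446, 394 and 322 reads. Library 1 stood above the others, and its exact Poisson 95% interval, 509 to 592, did not reach those of the others, of which the highest ended at 501. The highest library was 1.45 times the lowest, where the median of this ratio among 2360 genes of like mean (within 1.5-fold) was 1.24, and 14.5% of them had a larger one. These intervals cover counting error only, and PCR copies are not independent molecules.

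Atf5, a relative of ATF4 that is also regulated through translation and is known for its part in the mitochondrial stress response (chromosome 7, 44812256 to 44816658), varied less. Its normalized counts were 272, 294, 234 and 229. The intervals of the highest and the lowest library overlapped, and their ratio of 1.29 matched the median of genes of like mean, also 1.29.

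Trib3 encodes a pseudokinase that ATF4 induces and that holds ATF4 and CHOP back in a feedback loop (chromosome 2, 152337425 to 152344060). Its counts were low, with 42, 35, 35 and 21 reads, or 34.0, 29.7, 36.2 and 29.3 normalized counts. The ratio of highest to lowest was 1.24, and 96.0% of 1249 genes of like mean had a larger one. With so few reads, the interval of library 4 alone ran from 18.1 to 44.8, so a difference between libraries below about that width was not detectable at this depth.

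Chac1, which degrades glutathione and is induced through ATF4 and CHOP (chromosome 2, 119351242 to 119354326), had 37, 24, 19 and 26 reads. Normalized, these were 29.9, 20.4, 19.7 and 36.3. Libraries 1 and 4 were above libraries 2 and 3, but the intervals overlapped. The ratio of 1.85 was the largest of the 8 genes, yet below the median of 1.99 among 1011 genes of like mean.

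Asns, Psat1 and Phgdh serve the synthesis of amino acids. Phgdh encodes the first enzyme of serine synthesis (chromosome 3, 98313171 to 98339969) and was read at 746, 853, 769 and 1168 normalized counts. Library 4 stood above the others, with an interval of 1091 to 1250 against an upper limit of 907 for library 2. The ratio of highest to lowest was 1.57, and 6.46% of 1408 genes of like mean had a larger one. Psat1, the next enzyme of the same pathway (chromosome 19, 15905123 to 15925059), had 257, 274, 436 and 378. Here libraries 3 and 4 lay above libraries 1 and 2, and the intervals of the pairs did not overlap, ending at 306 and starting at 335. Its ratio was 1.69, exceeded by 6.34% of 2397 genes. Although both enzymes serve one pathway, library 3 was the highest for Psat1 and the second lowest for Phgdh. Asns, asparagine synthetase (chromosome 6, 7675165 to 7693209), had 209, 219, 191 and 169, with overlapping intervals and a ratio of 1.296 against a median of 1.32 in genes of like mean.

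Ddit4 and Sesn2 both restrain the growth kinase complex mTORC1 and are known as stress-induced inhibitors of it. Ddit4 (chromosome 10, 59949675 to 59951770) had 340, 336, 285 and 448 normalized counts. Library 4 was the highest, with an interval from 400 to 500 that did not meet those of the others, and library 3 the lowest. The ratio of 1.57 was exceeded by 9.67% of 2400 genes of like mean. Sesn2 (chromosome 4, 132492804 to 132510456) is given by its mean alone, 1076, or 310 per kb, above 88.1% of genes per kb.

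**Figure D2:**
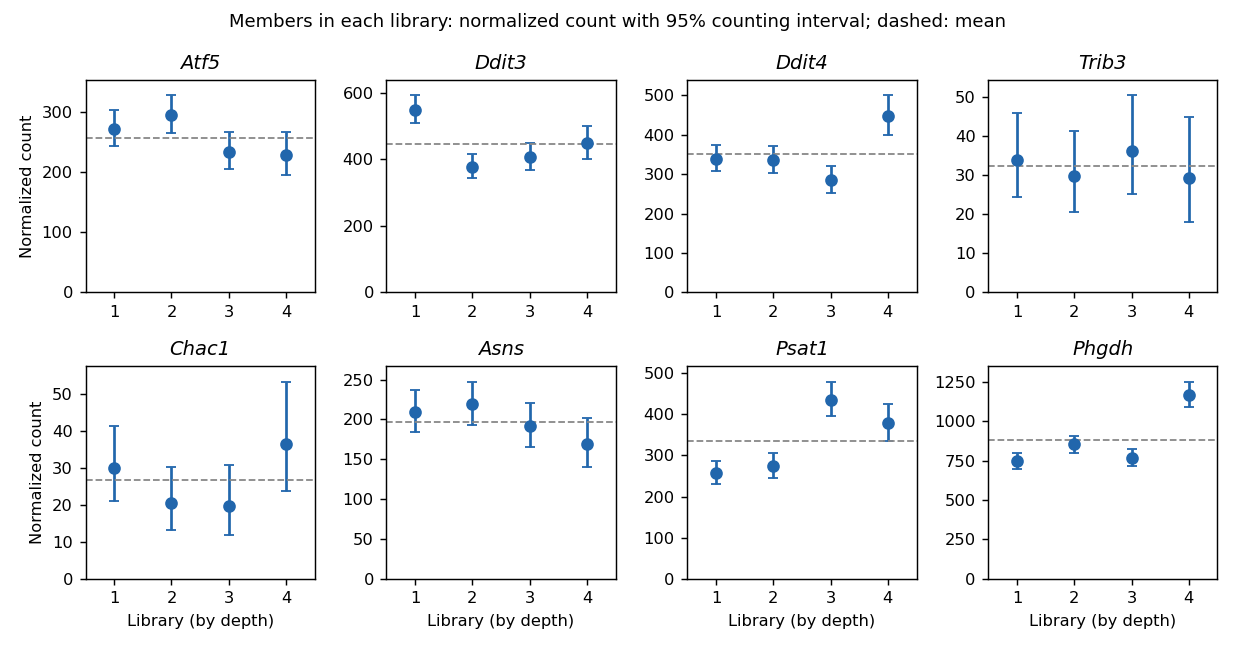
Normalized count of the 8 genes with recovered reads in each of the 4 libraries, numbered from the deepest to the shallowest, with exact Poisson 95% intervals as bars and the mean as a dashed line. Ddit4 and Phgdh are highest in library 4 at 448 and 1168, Ddit3 in library 1 at 549, and Psat1 in libraries 3 and 4.

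Across the 8 genes, single libraries ranged from 74.0% to 137% of the mean of the gene. In 4 genes, Ddit3, Ddit4, Psat1 and Phgdh, the intervals of the highest and the lowest library did not overlap. The same was found in 52.4% of the 9268 recovered genes, so 4 of 8 is near the share of all genes. In none did the ratio pass 2, which 13.1% of the recovered genes did. The ratio was above the median of genes of like mean in 5 of the 8, Ddit3, Ddit4, Psat1, Phgdh and, by less than the printed digits, Atf5. The genes did not share 1 order of libraries. Library 4 was highest in 3 of the 8 (Ddit4, Chac1 and Phgdh) and lowest in 3 others (Atf5, Trib3 and Asns). Over all recovered genes it was highest in 21.6% and lowest in 25.4%. The plot of spread against mean sets the 8 genes among the others.

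**Figure D3:**
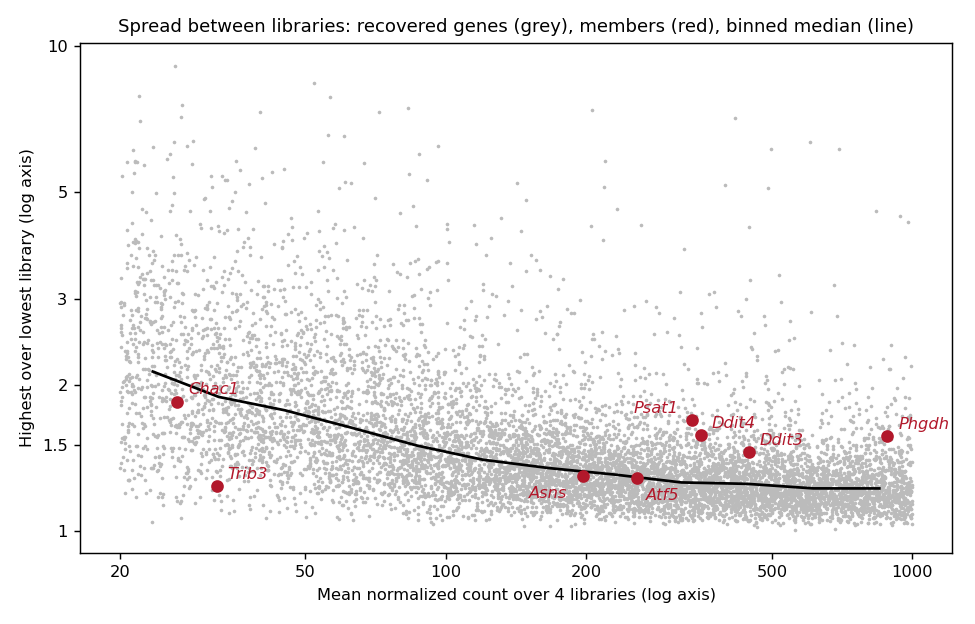
Ratio of the highest to the lowest library against the mean normalized count, both on log axes, for 9268 genes with recovered reads (grey) and the 8 genes described (red), with the median in bins of the mean as a line. Psat1, Ddit4, Ddit3 and Phgdh lie above the line, and Trib3 and Chac1 below it.

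Markers of HF-SCs and of other cells were read in the same values. Krt15, a bulge keratin, had a mean normalized count of 119883 and Cd34 one of 14575, and all 10 genes of the HF-SC list were above 590. Of that list, Krt5 and Krt14 were used by the authors to identify epithelial cells at large, so their levels do not set HF-SCs apart. The sort itself used CD34, integrin α6 and the Krt14 promoter, so the levels of Cd34, Itga6 and Krt14 cannot check it. Markers of other cells were present too. The mean was 7246 for Krt10 from suprabasal epidermis, and 5186, 4699 and 3397 for the fibroblast collagens Col1a1, Col1a2 and Col3a1. It was 3085 for Scd1 from sebaceous cells and 2744 for Cd74 of the myeloid list. The lowest genes above 0 on the same lists were Lor at 604, Pdgfra at 39.5, Mc5r at 2.71 and Ptprc at 87.6. Of 26 markers of other cells 24 had a mean above 0 and 11 had recovered reads. The T cell genes Cd3e and Cd3g had means of 9.52 and 4.85. Lor, from suprabasal epidermis, differed most, with 422, 623, 1183 and 187 normalized counts in libraries 1 to 4. The sum of 3 melanocyte genes was 818, 663, 1929 and 334, that of 2 sebaceous genes 897, 1119, 1454 and 653, and that of 3 myeloid genes 434, 1149, 824 and 431. Pecam1, from endothelium, had 28.3, 40.7, 56.9 and 19.5, and Pdgfra, from fibroblasts, 43.7, 32.2, 48.6 and 33.5. Library 4 was the lowest and library 3 the highest for Lor, for each of the 3 melanocyte genes, for Plin2, which makes up most of the sebaceous sum, and for Pecam1. The other sebaceous gene, Awat1, was highest in library 2 at 64.5. The 3 myeloid genes were each highest in library 2, while Lyz2 and Ptprc were lowest in library 1 and Csf1r in library 4. Tcf7l1, the 1 HF-SC marker with recovered reads, had 518, 569, 604 and 670, with library 4 the highest. The part of these cells in the values of the 8 genes was not tested. Psat1 and Trib3 were highest in library 3, and without that library their ratios were 1.47 and 1.16. Ddit4 and Chac1 were lowest in it, and their ratios without it were 1.33 and 1.78. Library 4 was the highest for Ddit4, Chac1 and Phgdh and the lowest for Atf5, Trib3 and Asns. Ratios without library 4 were not computed.

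The wider pathway was described by 14 lists with 80 genes, all of which had a mean above 0, and 76 of which had a mean of at least 10. All 4 eIF2α kinases were present at similar levels per kb, from 39.8 for Eif2ak1, the heme- and mitochondria-responsive kinase, through 49.4 for Eif2ak2 and 55.6 for Eif2ak3, to 75.0 for Eif2ak4, the sensor of amino acid shortage. The ratio of highest to lowest library was 1.09, 1.04, 1.39 and 1.21 for Eif2ak1 to Eif2ak4. Of these, that of Eif2ak3 lay above 1.35, the median over all recovered genes, which is not matched for mean. Of the phosphatase subunits that reverse the response, Ppp1r15a, itself stress-induced, stood at 2940 per kb and the constitutive Ppp1r15b at 377. Among eIF2 and its exchange factor, levels ran from 17.5 for Eif2b3 to 712 for Eif2s3x.

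Other targets of ATF4 differed widely in level. Atf3, an early stress factor with many inducers besides ATF4, had 25814 per kb, above Atf4 itself, while Stc2 had 0.904. Of the amino acid transporters, Slc38a2, a transporter of neutral amino acids, had 12556 and Slc7a11, the cystine transporter, 2.21. In the serine, glycine and one-carbon list Shmt2 was the highest at 299 and Aldh1l2 the lowest at 1.15. The proline genes Aldh18a1 and Pycr1 had 56.5 and 8.02. The 12 aminoacyl-tRNA synthetases were more even, from 65.2 for Yars to 526 for Nars, with a median of 127. Markers of the unfolded protein response had a median of 279, with Hspa5 at 3398 and Ern1 at 93.9, and the mitochondrial stress list one of 312, from Oma1 at 71.9 to Hspd1 at 678.

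Family relatives of the genes were set beside them per kb. Sesn1 had 196 and Sesn3 134, both below Sesn2. Trib1, at 1211, was far above Trib3, and Trib2 was near it at 19.5. Ddit4l had 3.22 against 209 for Ddit4, and Chac2, which acts on glutathione like Chac1, had 29.2. Of the 80 genes, 49 had recovered reads. Their median ratio of highest to lowest library was 1.29, compared with 1.51 for the 8 genes and 1.35 over all recovered genes. These medians are not matched for mean, on which the ratio depends. Of these 49, 3 passed a ratio of 2: Vldlr, Slc7a11 and Trib2. Over all recovered genes 13.1% did, a share that is not matched for mean either.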

How the data were processed

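Libraries were made with a directional kit and sequenced by the authors. Per the labels and methods, reads were aligned with Hisat2 2.1.0, converted with SAMtools 1.3.1, counted with HTSeq and compared with DESeq2. The labels give mm10, the methods NCBI37/mm10, which are different builds. The annotation, strand setting and read totals are not given in these sources. The deposited table gives for each gene a mean normalized count, a signal that the authors averaged over 4 libraries after division by size factors. Its 5 other columns, fold change, standard error, Wald statistic, p-value and adjusted p-value, are the authors' comparison and were not used, so no test was made.

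Genes with 1 read in 1 library gave the 4 size factors, refined over 1025 genes. For means from 20 to 1000, all sets of 4 whole numbers within 4-fold of the mean were searched to 1 unit of the 15th digit. The number of sets that would match by accident was 0.0252 for Phgdh and less for the other 7 genes, but 0.451 for Sesn2. The search was tested on simulated data. Lengths are unions of exons of GENCODE vM1 (NCBIM37), found for 95.9% of genes. Coordinates and promoters are RefSeq GRCm38.p6. Reads shared with processed copies of these genes were not assessed.

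The genes and lists were chosen with earlier results of these data known. The 10 genes, their family relatives and the highest and lowest gene of each list are named, together with every list gene past a ratio of 2. The markers named were chosen after their values were seen. Alternatives were other backgrounds for percentiles, other lengths, a wider tolerance, a wider fold limit, leaving out each library, a shorter promoter and a floor of 10 on the mean. Python 3.11.15, numpy 2.4.6, scipy 1.17.1 and matplotlib 3.10.9 were used.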

Additional observations from a re-analysis of the deposited data

How the results depend on the processing

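No paired analysis was possible because the column used holds 1 mean over all libraries, and the recovered libraries carry no replicate number. For the same reason the replicates of a group could not be left out. Leaving out each of the 4 libraries moved the median level of the 8 recovered genes from 297 to between 284 and 304, and no gene by more than 12.2%. The median percentile of the 10 genes, 68.0, was 57.0 among genes with a mean of at least 10, 47.2 with at least 50 (Chac1 and Trib3, under that floor, counted as lowest), and 65.2 among protein-coding genes. Relative to exon unions, 8 of the 10 genes kept their place in the order with the longest transcript, 2 with the shortest coding transcript and 4 with no division by length. Atf4 came first in all of these, by 14.7, 4.35 and 10.98 times the next gene against 19.3, and Chac1 and Trib3 held the last 2 places, in changing order. A wider tolerance and an 8-fold limit each gave the same reads for all 8 genes. With the 250 bases before the start alone, 2 genes held the response element, and Trib3 was lost. Library 2 or library 3, chosen after the data were seen, was also left out of the ratios of highest to lowest. The largest changes were without library 3, from 1.57 to 1.33 for Ddit4 and from 1.69 to 1.47 for Psat1. The ratio of Phgdh, 1.57, could not move, since its highest and lowest libraries were 4 and 1. Ratios without library 1 or library 4 were not computed, so these values do not show how far the ratios rest on single libraries. Depth limits Chac1 and Trib3, with 19 to 42 reads a library.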

Other observations

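Among the 3 list genes with a ratio of highest to lowest library over 2, Vldlr, a lipoprotein receptor induced by ATF4, had 234, 89.9, 196 and 413 normalized counts in libraries 1 to 4, a ratio of 4.60. A ratio over 2 was found in 13.1% of all recovered genes. Slc7a11, the cystine transporter, had 37.2, 31.4, 19.7 and 11.2, and Trib2, a pseudokinase of the same family as Trib3, had 52.6, 104, 66.2 and 112. The mean of Slc7a11 was low, at 24.9. Genes of like mean to Chac1, at 26.6, had a median ratio of 1.99. The order of libraries differed among the 3. Library 4 was the highest for Vldlr and Trib2 and the lowest for Slc7a11. No explanation was tested.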
